A study of Mus musculus with 14 samples.

Results

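The very short-lived 3′ ends are cleavage and polyadenylation sites of transcripts that had lost more than 80% of their reads 2 h after transcription was blocked. The counts of each library were divided by the factor that the authors give for it. A site was taken where the controls together held at least 100 reads and the scaled 2 h value was under 0.2 times the mean of the scaled controls. This rule chose 854 of the 11254 ends with 100 control reads (7.59%), out of 33590 ends in the table. The 2 h and control values chose the ends, so every value from the controls and the time course is a description and carries no test.

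The cells were mouse 3T3 cells, an established fibroblast line. The series holds 14 samples. Those used here were 2 controls, 4 libraries from cells kept for 1, 2, 4 or 8 h in 10 µg/ml actinomycin D, and 6 libraries of polysome fractions from 1 sucrose gradient, all made by 2P-Seq, which primes on the poly(A) tail and reads the mRNA from its 3′ end. The 2 libraries of the related 3P-Seq method were not analysed here. The labels do not say whether the controls came from separate cultures. Ends are given by position in the mm9 build with no gene names, so whether an end lies in a particular gene or untranslated region was not looked up, and the labelled cell type was not checked against marker genes.

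Actinomycin D stops RNA polymerase, so the reads left at a 3′ end after a given time reflect how much of the mRNA made beforehand still remains. Each ratio given here is relative to the factors of its libraries and is not an absolute amount of mRNA. Over all ends with 100 control reads the highest 8 h ratio was 19.4. Very short-lived mRNAs commonly encode transcription factors, cytokines and growth regulators, and sequences in the 3′ untranslated region, such as AU-rich elements and microRNA sites, recruit the enzymes that shorten the poly(A) tail and degrade the mRNA. In a sucrose gradient, mRNAs carrying more ribosomes sediment further, so the profile of an end over the fractions reports how heavily its mRNA is translated.

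The controls held 5843403 and 6433503 reads, the time course libraries 4045420 to 6111232 and the fractions 1663346 to 11575417. All 854 ends pass the authors' filter, as do all 11254 ends with 100 control reads. At 23 of the 854 ends (2.69%, against 0.942% of all ends with 100 control reads) scaled control 1 was more than 2-fold above control 2, and at 34 (3.98%, against 3.95%) the reverse held. The 23 ends differed from the rest at early and late times and are also described on their own. Each time and each fraction is 1 library, so nothing measures the spread between replicates of a time. Intervals on ratios of reads are exact 95% intervals for the counting of reads alone, because reads copied by PCR are not separate molecules.

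The very short-lived ends were less abundant than the rest, and their loss was already large at 1 h. Their control reads had a median of 274.5, or 22.3 CPM (reads scaled to the library total), against 381.5 reads and 31.1 CPM over all ends with 100 control reads, and ran from 100 to 16154 reads. With all ends split into 5 groups of about equal number, from the fewest to the most control reads, 10.3%, 9.57%, 7.70%, 6.23% and 4.09% were very short-lived. The share thus fell at each step, and the most abundant group, with 1082 reads or more, held 92 of the 854.

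At 1 h the median ratio to the controls was 0.346, with the middle 50% between 0.212 and 0.472, while over all ends with 100 control reads it was 0.963. The ratio at 1 h was under 0.5 at 669 of the 854 ends (78.3%, background 9.69%) and under 0.2 at 190 (22.2%, background 1.75%). The other 185 (21.7%, background 90.3%) kept a ratio of 0.5 or more at 1 h, so the rule itself places much of their loss between 1 and 2 h. These backgrounds share the controls with the rule, and nothing is read from the contrast with them.

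The rule fixes a large loss by 2 h, so the pace before and after that time is given as values only. Between 0 and 1 h the ends fell by a median of 1.53 on the log2 scale per hour, and between 1 and 2 h by 1.59. Between 2 and 4 h the median fall was 0.35 per hour, and between 4 and 8 h it was 0.19, over the 800 and 658 ends with reads at both times. All ends with 100 control reads fell by medians of 0.05, 0.35, 0.20 and 0.13 per hour over the same intervals. The medians after 2 h leave out the ends that reached 0 reads, which fell furthest.

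At 4 h the ratio was under 0.2 at 809 ends (94.7%, background 18.7%), and at 8 h at 832 (97.4%, background 34.5%). The medians were 0.0614 at 4 h and 0.0291 at 8 h, against 0.583 and 0.367 over all ends with 100 control reads. No reads were counted at 4 h at 48 ends (5.62%, background 0.48%) and at 8 h at 179 (21.0%, background 3%), so the late ratios rest on few reads. In the authors' deposited table, read in hours, the half-life of the 854 ends had a median of 0.623 h. The median was 3.00 h over the 11169 ends with 100 control reads and a deposited half-life.

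**Figure D1:**
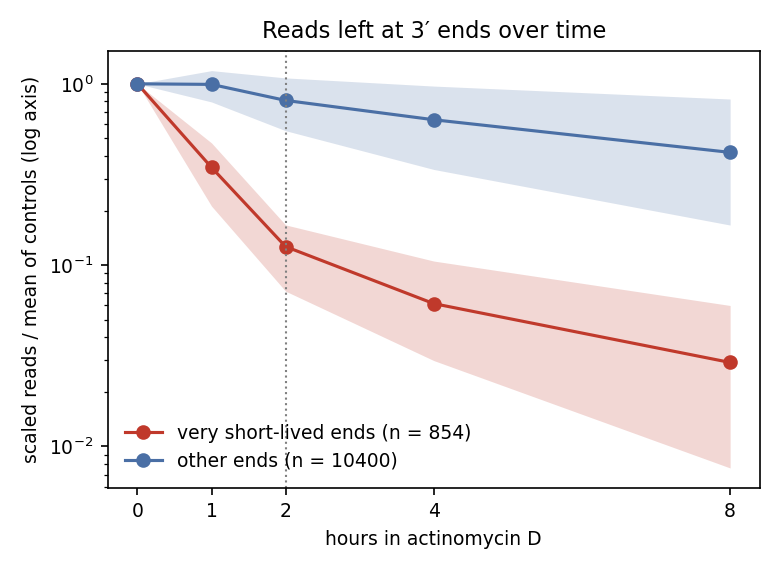
Scaled reads at each time in actinomycin D (hours, horizontal) divided by the mean of the scaled controls (log axis, vertical), as medians (points) with the middle 50% of ends (bands), for the 854 very short-lived ends and the 10400 other ends with 100 control reads. The dotted line marks 2 h, the time that chose the ends, where the median was 0.127. At 1 h it was 0.346 and at 8 h 0.0291.

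The most abundant of these ends lay on chromosome 10 (plus strand, 21719705). It held 7988 and 8166 reads in the controls and 640, 192, 107 and 47 reads after 1, 2, 4 and 8 h. Its 1 h ratio was 0.0829 (exact interval 0.0765 to 0.0897), far below both controls. The next, on chromosome 5 (minus strand, 125866346), went from 5024 and 5483 reads to 1011, 292, 221 and 117. A single end with no same-strand end within 2000 nt, it held 0.202 of its control level at 1 h and 0.0272 at 8 h.

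Other abundant ends left at different paces. On chromosome 12 (plus strand, 70474767) the controls held 3741 and 3417 reads and the time course 1967, 505, 159 and 72. Its 1 h ratio of 0.574 (exact interval 0.546 to 0.603) is among the slower ones, and on a log scale the drop between 1 and 2 h was larger than that in the first hour. On chromosome 13 (minus strand, 60275773) the reads went from 2673 and 2369 to 699, 114, 40 and 18. On chromosome 4 (plus strand, 135701300) they went from 2813 and 2019 to 550, 172, 46 and 16. On chromosome 17, an end on the plus strand (29237666) held 2773 and 3060 reads in the controls and 1072, 556, 320 and 128 over the time course. It lies close to the threshold with a 2 h ratio of 0.195. On its minus strand, an end at 34248976 held 2735 and 2906 control reads, then 1011, 469, 285 and 178. The last 2 kept 0.0536 and 0.0770 of the control level at 8 h, more than the other abundant ends.

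The fastest losses at 1 h, among ends with at least 300 control reads, were nearly complete at the first time measured. The end on chromosome 17 (minus strand, 26642536) held 841 and 839 reads in the controls and 21, 17, 8 and 2 afterwards, a 1 h ratio of 0.0261 (exact interval 0.0161 to 0.0401). On chromosome 3 (minus strand, 145309941) a single end held 2090 and 1803 control reads, then 66, 14, 29 and 30. Its 1 h ratio was 0.0354 and it declined no further after 2 h. On chromosome 11 (minus strand, 118899752) 179 and 140 control reads became 6, 6, 0 and 0, with an exact upper limit of 0.0282 on its 8 h ratio.

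The 3 highest 1 h ratios, also among ends with at least 300 control reads, belong to ends that the rule places under 0.2 at 2 h. An end on chromosome 12 (plus strand, 70476965) held 292 and 560 reads in the controls, then 341, 72, 37 and 8, so its 1 h library lay between the controls, with a ratio of 0.847 (exact interval 0.745 to 0.961). On chromosome 10 (plus strand, 41628228) the reads went from 142 and 177 to 116, 31, 37 and 14. On chromosome 5 (plus strand, 111816452) they went from 285 and 271 to 190, 42, 13 and 7. The 1 h ratios of these were 0.764 and 0.714, and their 2 h ratios 0.199 and 0.154.

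The threshold divides a continuous range. The ends just inside it, on chromosome 13 (minus strand, 63609636), chromosome 11 (plus strand, 22874907) and chromosome 2 (plus strand, 148518682), had 2 h ratios of 0.1999, 0.1998 and 0.1998. Those just outside, on chromosome 6 (plus strand, 120433743), chromosome 5 (plus strand, 32460209) and chromosome 4 (minus strand, 120593806), had 0.2002, 0.2005 and 0.2005. The first of these inside held 95 and 99 reads in the controls and 19 at 2 h, and the first outside 58 and 75 reads and 13 at 2 h.

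The 23 ends with control 1 more than 2-fold above control 2 stood apart at early and late times. Their median ratios were 0.102, 0.0901, 0.141 and 0.135 at 1, 2, 4 and 8 h, so the median was higher at 4 h than at 2 h. At the 797 ends with controls within 2-fold the 1 h median was 0.349. The 4 h value exceeded the 2 h value at 18 of the 23 (78.3%), against 185 of all 854 (21.7%, background 21%). Among the other ends with control 1 more than 2-fold above control 2 it did so at 43 of 83 (51.8%), so a higher 4 h value was common wherever the controls differed in this direction. At the 34 ends with the reverse difference it did so at 9 (26.5%), and at the 797 ends with controls within 2-fold at 158 (19.8%). Of the 22 ends with an 8 h ratio of 0.2 or more (2.58%, background 65.5%), 9 were among these 23 and 12 among the 797.

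The 3 highest 8 h ratios were all among the 23. On chromosome 17 (minus strand, 34738035) the controls held 386 and 120 reads, and the time course 28, 21, 287 and 291. On chromosome 7 (minus strand, 52748245) the reads were 144 and 36, then 20, 14, 112 and 100. On chromosome 3 (plus strand, 95434413) they were 271 and 60, then 20, 23, 142 and 83. At each of these control 1, 4 h and 8 h were high while control 2, 1 h and 2 h were low, so these ends did not stay low over the time course. By place in the locus, 9 of the 23 were the most 5′ end, 5 a middle end, 3 the most 3′ end and 6 single ends, against 130, 169, 262 and 236 of the 797. They held a median of 44.3% of the control reads of their locus, against 91.8% at the 797 ends. The cause of the difference between the libraries was not tested. Without the ends whose controls differed more than 2-fold in either direction, the median ratios of the 797 were 0.349, 0.126, 0.0597 and 0.0272, close to those of all 854.

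**Figure D2:**
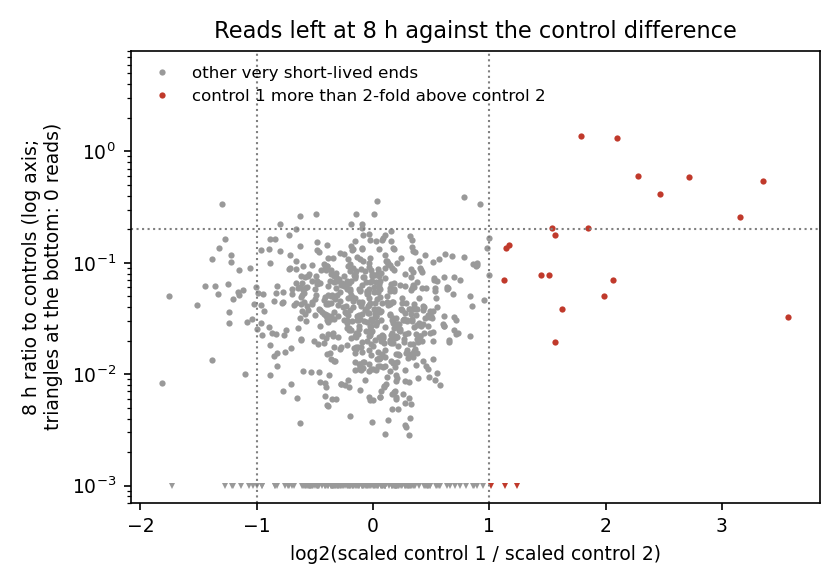
Ratio of the 8 h library to the mean of the scaled controls (log axis, vertical) against log2 of scaled control 1 over scaled control 2 (horizontal) for the 854 very short-lived ends, 1 point each, with triangles at the bottom for ends with 0 reads at 8 h. Dotted lines mark 2-fold differences and a ratio of 0.2. The 23 ends in red, right of the 2-fold line, include the highest 8 h ratios.

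Same-strand ends lying close to a very short-lived end were often very short-lived too. Of the 854 ends, 279 had another end with 100 control reads on the same strand within 2000 nt, and 189 of these (67.7%) had at least 1 very short-lived neighbour. Counted over neighbours, 268 of 394 (68.0%) were very short-lived, against 126 of 7354 neighbours (1.71%) of the other ends. A pair of very short-lived ends enters this count from both sides. With each pair counted once, both ends were very short-lived in 134 pairs and only 1 in 126. The 126 of 7354 neighbours come from the same pairs as the neighbours among the 394 that were not very short-lived. The 2 shares are therefore not separate, here and at each distance below. Over all ends with 100 control reads 7.59% were very short-lived. The neighbours share the libraries, so the shares are a description. Whether the nearest ends are reads of 1 cleavage region was not tested.

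The sharing declined with distance. Within 50 nt 83.3% of neighbours were very short-lived (80 of 96), from 51 to 200 nt 70.6%, from 201 to 500 nt 71.2%, from 501 to 1000 nt 56.5% and from 1001 to 2000 nt 44.4% (28 of 63). Between 2001 and 10000 nt the share was 32.2% (38 of 118), against 3.73% at neighbours of other ends. On the opposite strand within 2000 nt it was 3.13% (2 of 64), against 4.60%. Fast loss was thus common among same-strand neighbours, most of all within 50 nt, and rare on the opposite strand.

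**Figure D3:**
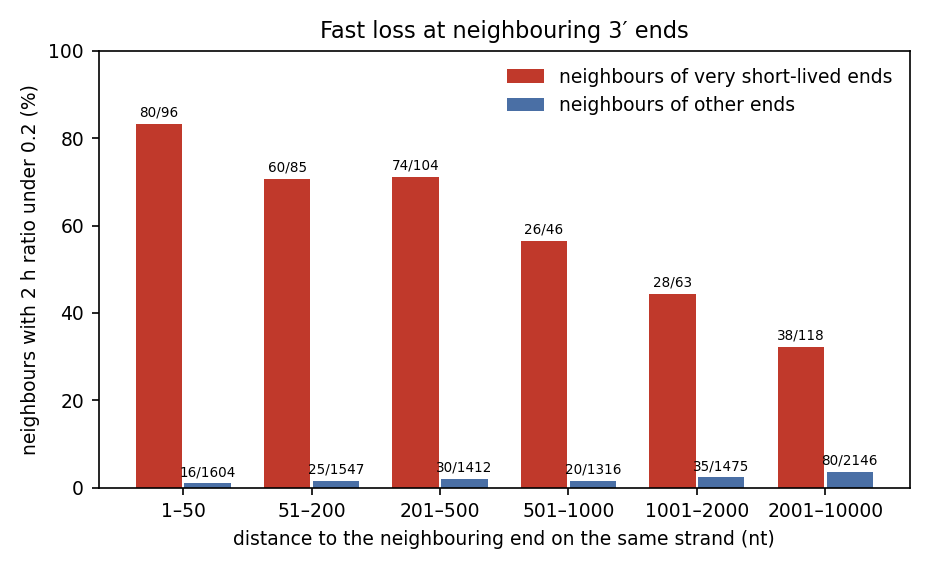
Percentage of neighbouring ends on the same strand, with 100 control reads, that had a 2 h ratio under 0.2 (vertical) by distance (nt, horizontal), for neighbours of very short-lived ends and of other ends with 100 control reads. Numbers over the bars are neighbours under the threshold and neighbours in all. The share fell from 83.3% within 50 nt to 32.2% between 2001 and 10000 nt beside very short-lived ends, and was at most 3.73% beside other ends.

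Where both ends of a pair within 2000 nt were very short-lived, their 1 h ratios lay closer than those of very short-lived ends of different loci. There were 134 such pairs, and 112 (83.6%) had 1 h ratios within 2-fold of each other, with a median difference of 0.39 on the log2 scale. Over all pairs of very short-lived ends from different loci 59.2% were within 2-fold, with a median difference of 0.80, and over neighbouring pairs with neither end very short-lived 96.6%, with 0.23. The rule bounds the 2 h ratios of both ends, and pairs share ends, so these shares carry no test. The chromosome 10 end at 21719705 has a neighbour 23 nt upstream, at 21719682, with 4393 and 4704 control reads and 368, 114, 67 and 22 reads over the time course. Their 1 h ratios were 0.0829 and 0.0847, and their intervals overlapped. A locus, meaning ends each within 2000 nt of the next on a strand, held at most 5 very short-lived ends. Of the 740 loci with a very short-lived end, only 187 had 2 or more ends with enough control reads for the rule. In 90 of these 187 loci, 2 or more ends were very short-lived.

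Another locus on chromosome 10 (plus strand) had 3 very short-lived ends. The ends at 17445443 and 17445471 held 47.1% and 47.5% of its control reads, with 3834 and 3655, and 3825 and 3712, control reads. They fell to 461 and 463 reads at 1 h and to 64 and 58 at 2 h, and so moved together. The remaining end, at 17444748, held 575 and 283 control reads and 26, 26, 15 and 25 afterwards. It is 1 of the 23 ends with control 1 more than 2-fold higher.

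The same arrangement was seen on chromosomes 9 and 13. On chromosome 9 (plus strand) the ends at 102635725 and 102635746 went from 1498 and 1647, and 1571 and 1763, control reads to 203 and 208 reads at 1 h and 65 and 71 at 2 h. The most 5′ end, at 102635466, held 109 and 28 control reads and 5, 10, 9 and 4 afterwards. On chromosome 13 (minus strand) the end at 60275773 described above has very short-lived ends at 60275818, 60275844 and 60276185. The first of them held 81 and 76 control reads and 15, 4, 0 and 0 afterwards, and the second 307 and 251, then 70, 9, 3 and 0. The most 5′ of them, at 60276185, held 417 and 145 control reads and 12, 9, 14 and 9 afterwards, again with control 1 far above control 2. On chromosome 12 the ends at 70474767 and 70476965 belong to a locus of 4 ends and kept 0.574 and 0.847 at 1 h and 0.144 and 0.174 at 2 h.

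Exceptions, pairs with only 1 very short-lived end, numbered 126, against 134 pairs with both. The very short-lived end was the distal one, farther along the mRNA, in 77 of the 126 and the proximal one in 49. In 24 of the 126 the other end kept a 2 h ratio of at least 0.5. Among these 24 the very short-lived end was distal in 18 and proximal in 6. Of the 24 pairs, 23 were more than 200 nt apart. At 17 of the 279 ends with a neighbour, the most abundant neighbour had a ratio of 0.5 or more.

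The clearest of these, chosen by control reads, was on chromosome 10 (plus strand). The distal end at 24318485 went from 953 and 575 reads to 162, 39, 27 and 14, while the proximal end at 24317514 went from 67 and 44 to 110, 86, 92 and 58. The proximal end thus kept 1.57 of its control level at 2 h and the distal end 0.0516. On chromosome 8 (plus strand) the distal end at 86135800 went from 546 and 479 reads to 218, 43, 6 and 7. Its neighbour at 86134868 went from 152 and 168 to 167, 134, 29 and 17. The proximal end was therefore delayed rather than stable, with a ratio of 0.856 at 2 h and 0.130 at 8 h. On chromosome 3 (minus strand) the distal end at 116334086 went from 268 and 247 reads to 111, 47, 9 and 6. Its proximal neighbour at 116334922 went from 157 and 159 to 122, 136, 95 and 29. The 2 h ratios were 0.186 and 0.878.

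The other 2 exceptions need their controls beside them. On chromosome 19 (minus strand) the distal end at 5795690 held 437 and 951 reads in the controls and 77, 61, 16 and 24 afterwards. Its proximal neighbour at 5795999 held 163 and 102 control reads and 127, 522, 1345 and 2123 afterwards, and so rose while the distal end fell. On chromosome 3 (plus strand) the proximal end at 95434413 is 1 of the 3 with the highest 8 h ratio, and its distal neighbour at 95436023 held 52 and 64 control reads and 66, 77, 63 and 65 afterwards. Scaled by the authors' factors, that neighbour stayed above both of its controls throughout.

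Very short-lived ends stood in loci much like those of other ends, and somewhat more often at the distal side. Single ends were 250 of the 854 (29.3%, against 27.3% of all ends with 100 control reads). The most 3′ end of a locus was 282 (33.0% against 28.9%), the most 5′ end 141 (16.5% against 20.1%) and a middle end 181 (21.2% against 23.8%). They held a median of 91.1% of the control reads of their locus, against 85.9%. An end on the opposite strand lay within 2000 nt of 78 of them (9.13%), against 15.7%. By chromosome, 11.9% of ends on chromosome 13 were very short-lived, the highest share, and 2.20% on chromosome X, the lowest (7 of 318). Ends of 1 locus are not independent, and these shares carry no test.

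The gradient libraries were not used to choose the ends, so they were tested. The slope of each end over fractions 1 to 6, light to heavy, was fitted with edgeR across all 18484 ends with 60 gradient reads, relative to the rest of each library. Of the very short-lived ends 853 were tested, and 11 fell towards the heavy fractions (1.29%, background 4.28%, or 3.7% of ends with 100 control reads) and 3 rose (0.352%, background 0.438%, or 0.419% of ends with 100 control reads). At an unadjusted p under 0.05 there were 38 and 36 of the 853, against 1019 and 834 of 11224 tested ends with 100 control reads. The median slope was 0.06 on the log2 scale per fraction, as over all ends with 100 control reads, at 0.06. The gradient was run once, so the p-values measure only the spread of 6 libraries around a line.

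The profiles of the very short-lived ends spread less widely than those of all ends. The middle 50% of their slopes ran from -0.09 to 0.19, against -0.13 to 0.21. In the authors' deposited table the ribosomes per mRNA had a median of 6.34, with the middle 50% from 5.57 to 7.10, against 6.49 and 5.35 to 7.55 over all ends with 100 control reads. Both extremes were sparse: 20 ends (2.34%) had under 4 ribosomes, against 7.46%, and 4 (0.468%) had over 9, against 3.61%. Read the other way, 10.8% of ends with 6 to 7 ribosomes were very short-lived, but 2.38% of those under 4 and 0.985% of those at 9 or more. These distributions carry no test, since 1 gradient was run. Scaled by library totals in place of the authors' factors, the median was 5.33 ribosomes against 5.43.

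By fraction, the very short-lived ends had medians of 20.2% and 19.6% of their scaled gradient reads in fractions 3 and 4, against 17.8% and 17.1% over all ends with 100 control reads. In fraction 6 the median was 27.0% in both. Within the very short-lived ends, the 1 h classes differed in order. Ends with a 1 h ratio under 0.2, from 0.2 to 0.5 and of 0.5 or more had median ribosome numbers of 6.13, 6.30 and 6.74, and median shares of 23.9%, 26.8% and 31.3% in fraction 6. The middle 50% of the first class, from 5.34 to 6.87 ribosomes, overlaps that of the last, from 5.86 to 7.56.

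**Figure D4:**
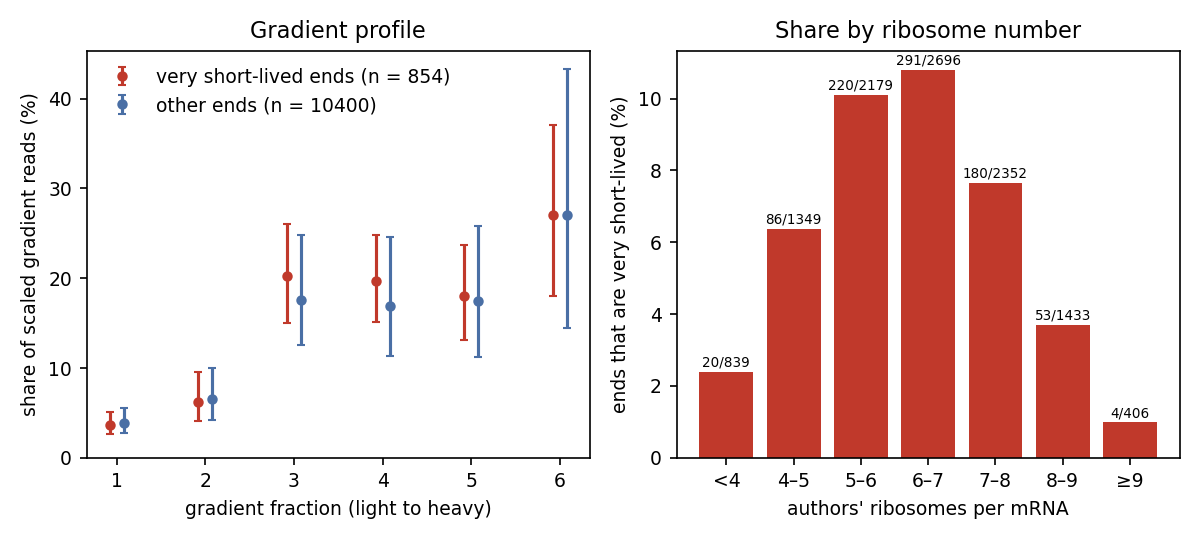
Left, share of scaled gradient reads (percent, vertical) in fractions 1 to 6 (horizontal), as medians (points) with the middle 50% of ends (bars), for the 854 very short-lived ends and the 10400 other ends with 100 control reads. Right, percentage of ends that are very short-lived (vertical) by the authors' ribosomes per mRNA (horizontal), with counts over the bars: the share is highest, at 10.8%, from 6 to 7 ribosomes and lowest, at 0.985%, at 9 or more.

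The 5 steepest falling ends had 0.418 to 3.08 ribosomes per mRNA in the authors' deposited table. A single end on chromosome 5 (plus strand, 72641983) held 312, 36, 30, 10, 0 and 5 reads in fractions 1 to 6, with a slope of -2.10 ± 0.23 (SE, edgeR adjusted p = 2.08e-08). The lightest fraction held 83.6% of its scaled gradient reads. An end on chromosome 16 (minus strand, 55811490) held 130, 110, 89, 28, 18 and 19 reads (slope -1.31 ± 0.18, edgeR adjusted p = 1.81e-06). Both calls held without each fraction in turn. This end kept 0.264 of its control level at 8 h.

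The chromosome 19 end at 5795690 was also light, with 35, 10, 10, 5, 3 and 6 reads (slope -1.27 ± 0.19, edgeR adjusted p = 1.44e-05, or 0.0624 without fraction 1). It held 1388 reads in the controls but 69 over the whole gradient, a log2 ratio of CPM, gradient over controls, of -6.16, the lowest of the 854. That ratio pools the raw reads of all fractions, so shallow fractions count for less. Fraction 1, which held 35 of the 69 reads, was the shallowest at 1663346 reads. On chromosome 17 (plus strand, 35959854) the fractions held 334, 926, 732, 465, 254 and 226 reads (slope -0.93 ± 0.21, edgeR adjusted p = 0.00312, or 0.0801 without fraction 5 and 0.113 with the authors' factors). On chromosome 7 (minus strand) both ends of a locus were called, 63 nt apart. The more 5′ of them, at 29161865, held 20, 204, 171, 101, 40 and 51 reads (slope -0.83 ± 0.22, edgeR adjusted p = 0.0137), and its call was lost without fraction 2, 5 or 6, at 0.273, 0.193 and 0.108, and with the authors' factors, at 0.217.

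The 3 rising ends had 8.64 to 9.02 ribosomes per mRNA in the authors' deposited table. A single end on chromosome 8 (minus strand, 59010320) held 0, 6, 18, 54, 98 and 193 reads in fractions 1 to 6 (slope 0.86 ± 0.21, edgeR adjusted p = 0.00846), and this call held without each fraction in turn. On chromosome 9 (plus strand, 61266287) the fractions held 5, 21, 61, 151, 196 and 626 reads (slope 0.66 ± 0.17, edgeR adjusted p = 0.014, lost without fraction 2 or 6, at 0.0585 and 0.108). On chromosome 16 (plus strand, 17487377) they held 8, 14, 31, 130, 238 and 397 reads (slope 0.57 ± 0.17, edgeR adjusted p = 0.0433, lost without fraction 2, 3, 5 or 6, at 0.101 to 0.197). All 3 had their highest raw count in fraction 6, which was also the deepest library at 11575417 reads.

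The extremes of ribosome number, among ends with at least 100 gradient reads, overlap with these. The fewest were 0.418 at the chromosome 5 end, 1.72 at the chromosome 16 end at 55811490 and 2.81 at the chromosome 17 end at 35959854. The most were 9.64 at the chromosome 7 end at 52748245, whose controls were unequal, 9.49 on chromosome 5 (plus strand, 30598972) and 9.20 on chromosome 9 (plus strand, 99484879). None of these last 3 passed the slope test, with edgeR adjusted p of 0.264, 0.0571 and 0.114.

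Ends of a locus can also be compared with each other within the same fractions. Of 7333 pairs of ends within 2000 nt, the distal end was relatively heavier in 33 (0.45%) and lighter in 9 (0.123%) by edgeR at an adjusted p under 0.05. Among the 100 pairs with both ends very short-lived, edgeR called 0, with 11 heavier and 7 lighter at an unadjusted p under 0.05, and DESeq2 called 2. Over all 7333 pairs 588 were heavier and 296 lighter at an unadjusted p under 0.05 by edgeR, and DESeq2 called 158. The median size of the slope difference was 0.07 per fraction in the 100 pairs and 0.09 over all pairs. Among the 403 pairs with 1 very short-lived end 4 were called, or 0.993%, and in all 4 the distal end was very short-lived and heavier. Calls among these pairs depend on single libraries. Without fraction 2 edgeR called 0 of the 503 pairs with a very short-lived end, and 9 over all pairs. Of the 503, 69 were then at an unadjusted p under 0.05, against 76 with all fractions.

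On chromosome 14 (minus strand) the very short-lived distal end at 106291165 took 64.0% of the reads of the pair in fraction 1 and 90.0% in fraction 6, with the proximal end 193 nt upstream at 106291358 (slope difference 0.51 ± 0.07, edgeR adjusted p = 0.0104). The proximal end also lost its reads quickly, with 49 and 28 in the controls and 3 at 2 h, but had too few for the rule. On chromosome 10 (minus strand) the distal end at 22423684, 1502 nt beyond the proximal end at 22425186, took 5.51% of the reads in fraction 1 and 20.9% in fraction 6 (difference 0.40 ± 0.06, edgeR adjusted p = 0.018). Here the proximal end was slower, with a 2 h ratio of 0.556 against 0.193. On chromosome 4 (minus strand) the distal end at 126724834 took 85.4% and 98.3% (difference 0.68 ± 0.12, edgeR adjusted p = 0.034), with the proximal end 1809 nt away at 126726643. That proximal end held 26 and 36 control reads, too few for the rule, and had a 2 h ratio of 0.397. The pair with the largest difference lies on chromosome 12 (minus strand), with the distal end at 76731582 and the proximal end 441 nt away at 76732023. The distal end took 2.07% of the reads in fraction 1 and 46.7% in fraction 6 (difference 1.12 ± 0.15, edgeR adjusted p = 0.00989). Its proximal end held 292 and 116 control reads and 208, 678, 793 and 1562 over the time course, above both controls from 2 h on, while the distal end went from 71 and 98 to 48, 7, 8 and 0. Each of the 4 lost its call without fraction 2 and without 1 or more of the other fractions, with edgeR adjusted p up to 0.164.

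With the raw reads of all fractions pooled, so that deeper libraries counted for more, these ends stood at about the level of the controls. The log2 of CPM in the gradient over CPM in the controls had a median of -0.17, against -0.14 over all ends with 100 control reads. It was more than 2-fold lower in the gradient at 159 ends (18.6%, background 19.9%) and more than 2-fold higher at 48 (5.62%, background 7.41%), shares near the background. The highest was 2.35, on chromosome 19 (plus strand, 23242615), with 92 and 131 control reads and 48, 121, 374, 938, 1613 and 967 reads in fractions 1 to 6.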

How the data were processed

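The deposited table holds raw read counts per poly(A) site, with positions in mm9, per the file headers. The submitters' processing notes name Bowtie, with no version given in the sources used here. The gradient columns carry the numbers 0, 1, 2.5, 4.5, 7.5 and 12, and assigning them in ascending order to fractions 1 to 6 is an assumption. The authors' deposited ribosome number (a score per site) equalled the mean of these numbers weighted by scaled counts at 854 of 854 members, within 1e-06. The authors' deposited half-life has no stated unit. It was read in hours, because a fitted exponential decay rate per hour, raised by 0.1, gave the deposited rate at 852 of 854 members within 0.002.

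Ratios are counts over the header factor, divided by the mean of the scaled controls, with exact 95% intervals. Gradient slopes were fitted with edgeR 4.0.16 in R 4.3.3 (quasi-likelihood F test, robust, TMM, Benjamini-Hochberg over all ends or pairs tested) on fraction number, at a minimum of 60 reads and an adjusted p under 0.05. Each end was paired with its most abundant same-strand end within 2000 nt, with a term per library. The fits were tested on simulated data. DESeq2 1.42.0, RLE and header-factor scaling, read minimums and left-out libraries were alternatives. Per-sample columns left unused numbered 0. The members and the rules were chosen with earlier results of these data known. Ends were named by rank on control reads, 1 h ratio, 8 h ratio, ribosome number, gradient slope, distance from the threshold, and discordance with a neighbour. The gradient's lowest and highest ends against the controls were named after their values were seen. Upstream sequence, marker genes and gene names were not used here.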

Additional observations from a re-analysis of the deposited data

How the results depend on the processing

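The number of very short-lived ends, 854, became 557 at a threshold of 0.15, 1170 at 0.25, 540 at 200 control reads and 1225 at 50, and ranged from 804 to 924 without 1 control. Of the 601 chosen with TMM scaling, all 601 were among the 854. A change of scaling moves all 2 h ratios by nearly the same factor, so this overlap follows from a stricter cut. The median 1 h ratio of the very short-lived ends, 0.346, became 0.282 at 0.15 and 0.398 at 0.25. It was 0.330 with library totals, 0.295 with TMM, and 0.342 to 0.351 without 1 control. Chosen with control 2 and read against control 1, an alternative added after seeing the data, it was 0.393. The share of fast neighbours, 68.0%, became 75.1% within 500 nt and 63.1% at least 50 nt apart, and 62.7% to 67.9% without 1 control. The median ribosome number was 5.33 with library totals.

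Over the gradient, 792 ends fell and 81 rose, 11 and 3 of them very short-lived. DESeq2 gave 1324 and 192, with 22 falling very short-lived. The authors' factors moved the median slope of all ends from 0.04 to 0.50 and called 162 falling and 7279 rising, with 3 and 350 very short-lived. A minimum of 1 read gave 1195 and 275, a minimum of 20 gave 139 rising, and the number in the fraction name gave 182 rising, 5 of them very short-lived. Leaving out each fraction gave 216 to 1421 falling and 8 to 730 rising, with 3 to 24 and 1 to 27 very short-lived. Without fraction 1 the very short-lived ends split into 24 falling and 27 rising. Pairs called, 42, became 158 with DESeq2 and 17 at 200 reads, and 7 to 53 without a fraction. Those with a very short-lived end, 4, became 12 with DESeq2 and 0 to 7. Of 214 calls of 18 named ends or pairs, 160 held, 53 were lost and 1 turned: the falling end on chromosome 9 (plus strand, 53382082; slope -0.56) had a slope of 0.13 without fraction 1 and of -1.04 without fraction 6. The cause was not tested. No paired analysis was possible because each time and each fraction has 1 library and the groups share fewer than 2 replicate numbers. Read depth limits the late ratios: 179 of the 854 ends had 0 reads at 8 h.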
